A study of Mus musculus with 24 samples.

Results

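Of the 24 hearts in the series, 3 are described here. They are DTR_PYR replicates 4, 5 and 6, the libraries of the injured and drug-treated group in which Hbegf stayed below 40 CPM (reads of a gene relative to all counted reads). Hbegf stood at 18.5, 21.99 and 24.8 CPM of total counts in these hearts. The other 3 DTR_PYR hearts had 196, 187 and 127 CPM, and the 6 WT_PYR hearts ranged from 18.7 to 22.7 CPM. The 3 hearts were thus chosen by their measured Hbegf level, so Hbegf is given with no test. The comparison with WT_PYR asks which genes still differ in DTR hearts that show little of the injury response.

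All animals were male C57BL/6 mice aged 10 weeks, and the apex of the ventricles was taken at day 5. WT_PYR mice received pyridostigmine and no diphtheria toxin, and WT_PBS mice received the vehicle PBS and no toxin. DTR_PBS and DTR_PYR mice had an injury made with the toxin and received PBS or pyridostigmine. Pyridostigmine is a drug against cholinesterases, which degrade acetylcholine. DTR commonly stands for a receptor of diphtheria toxin, needed because mouse cells otherwise resist it. The sources used here name neither the cells that carried it nor its promoter. Genotype and toxin travelled together, so the effects of one and the other cannot be told apart. Each library carried its own animal tag and was treated as 1 animal, so p-values measure the spread between these animals.

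Hbegf encodes a membrane-bound growth factor of the EGF family, and its human form is the receptor of the toxin. Heart muscle contracts when myosin heads, each carrying an essential and a regulatory light chain, pull on actin; Myl3 encodes the essential and Myl2 the regulatory light chain of the ventricle. Injured heart muscle is known for switching on natriuretic peptides, immediate early genes and matrix genes, and for lowering ion channels and enzymes of energy metabolism.

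The 3 hearts had 9.66, 37.8 and 6.49 M counts and WT_PYR had 7.24 to 15.3 M. On the first principal component of log2 CPM, which took 46.5% of the variance, they lay at −32.4, −24.3 and −17.9. WT libraries lay between −50.4 and −29.9 and the other 9 DTR libraries between 27.6 and 94.9. The titles end each animal's tag with a letter, U or V, that no source used here explains. The 3 hearts were all V, WT_PYR held 4 U and 2 V libraries, and the other DTR_PYR hearts held 2 U and 1 V. From here on, CPM are TMM-scaled (trimmed mean of M-values).

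The hearts were close to wild type for inflammation and scarring and were not free of the injury pattern. Nppb, which encodes B-type natriuretic peptide, stood at 332, 413 and 640 CPM, against 141, 233 and 380 (lowest, median and highest) in WT_PYR and 2181 to 3426 in DTR_PBS. DTR_PYR 5 and 6 lay above every WT_PYR heart and DTR_PYR 4 did not. Cdkn1a, which halts the cell cycle, stood at 33.7, 49.0 and 132 CPM against 23.3, 27.0 and 34.8 in WT_PYR. Ctgf, a growth factor of scarring, stood at 88.9, 121 and 322 CPM against 58.0, 83.9 and 117. In both genes DTR_PYR 6 was the highest and DTR_PYR 4 lay within the WT_PYR range. The matrix cytokine Spp1 (4.75, 4.04 and 11.7 CPM) and the monocyte receptor Ccr2 (2.16, 4.80 and 2.72 CPM) overlapped WT_PYR, where they ranged from 1.24 to 43.9 and from 0.732 to 4.03 CPM. Summed over 7 injury markers, the 3 hearts ranged from 433 to 959 CPM, WT_PYR from 255 to 504 and DTR_PBS from 3535 to 5383. Hbegf, which chose the hearts, is among the 7, so this sum is a description and no separate support. Summed over 6 markers of ventricular muscle, Myl2 and Myl3 among them, the 3 hearts had 55729 to 64381 CPM and WT_PYR 70825 to 79932. Tnnt2, cardiac troponin T, overlapped, at 7784, 7344 and 9109 CPM and at 5838 to 9211 CPM in WT_PYR.

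**Figure D1:**
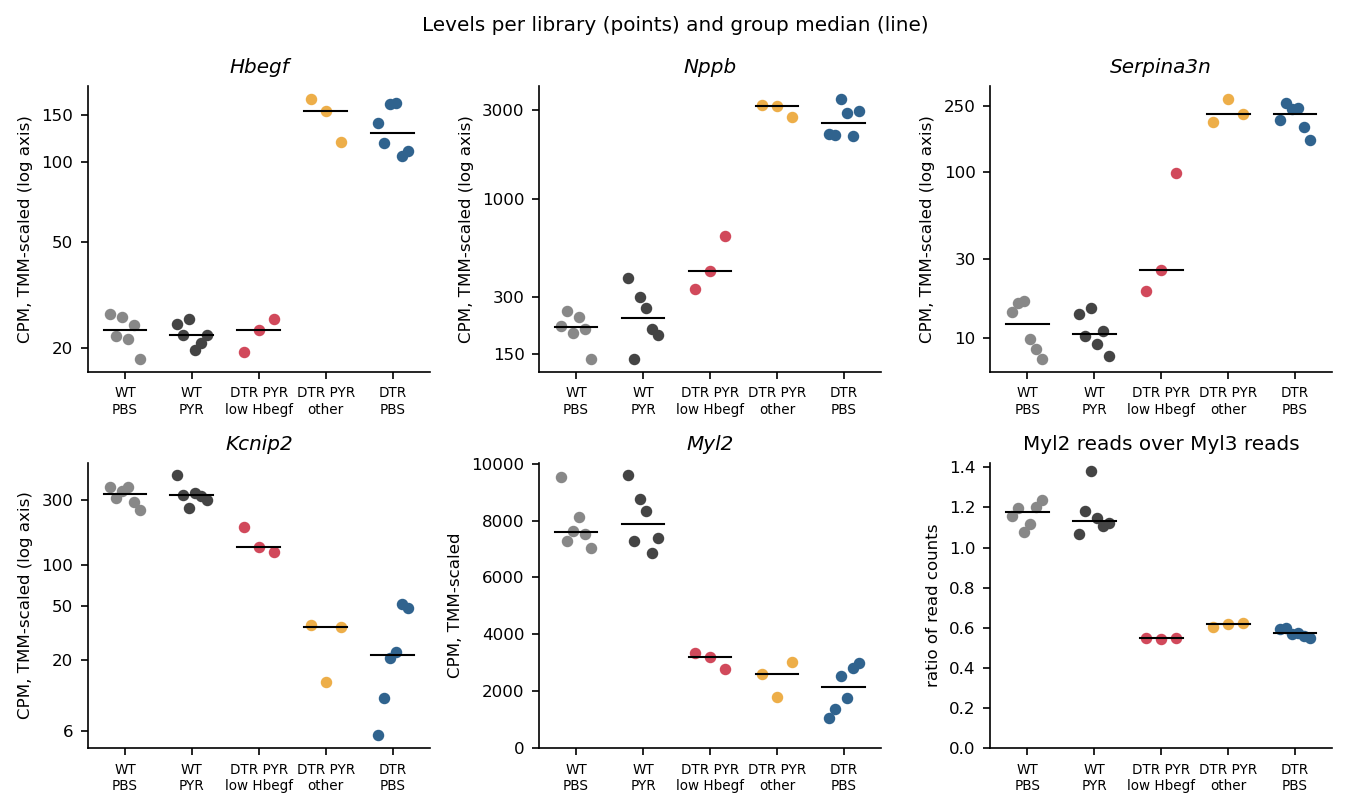
Levels per library of Hbegf, Nppb, Serpina3n, Kcnip2 and Myl2 (TMM-scaled CPM, log axes except for Myl2) and the ratio of Myl2 to Myl3 reads; points are libraries and lines are group medians. Hbegf of the 3 low-Hbegf hearts (red) lies in the WT range, Kcnip2 lies between WT and the other DTR hearts and Nppb does so in DTR_PYR 5 and 6, while Myl2 (2795 to 3333 CPM) and the ratio (0.544 to 0.552) lie with the DTR hearts.

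Few genes passed an adjusted p of 0.05 in the 3 hearts against WT_PYR. In the edgeR quasi-likelihood fit of all 24 libraries, 7 genes were higher and 0 were lower, 0.0453% of 15456 genes, with 1882 genes (12.2%) at an unadjusted p under 0.05. DESeq2 gave 55 higher and 28 lower, limma voom 0 and 0, and edgeR on the 9 libraries alone 28 and 7. With the tag letter as a covariate edgeR gave 0. The count also fell to 0 without DTR_PYR 6 or without WT_PYR 6, to 2 without WT_PYR 5 and to 3 without WT_PYR 4, and rose to 15 without DTR_PYR 4. Because Hbegf chose the hearts, these calls order the genes and are no test of a labelled group. The test used below is DTR_PBS minus WT_PBS, which shares no library with the comparison and in which 7102 genes (45.9%) passed, 3541 up (22.9%) and 3561 down (23.0%). With total counts in place of TMM, the median log2 fold change over all genes there went from 0.01 to 0.39, and 6022 genes rose and 1893 fell. The labelled groups of 6, DTR_PYR minus WT_PYR, include the 3 hearts and gave 1891 genes (12.2%), 1246 up (8.06%) and 645 down (4.17%), or 1880 and 395 with total counts.

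Without a model, all 3 hearts lay above all 6 WT_PYR hearts for 902 genes (5.84%) and below them for 767 genes (4.96%), 10.8% in all. With total counts the split was 1090 higher and 521 lower. Against all 12 WT hearts, the 3 were higher for 85 genes (0.55%) and lower for 160 (1.04%).

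Myl2, the regulatory light chain of the ventricle (ENSMUSG00000013936, GRCm38 chr5:122100951-122113472, plus strand), was low in all 3 hearts. The 3 hearts had 3333, 3214 and 2795 CPM, against 6854, 7866 and 9610 (lowest, median and highest) in WT_PYR and 7019 to 9531 in WT_PBS. All 3 lay below every one of the 12 WT hearts, DTR_PYR 6 within and DTR_PYR 4 and 5 just above the ranges of the other DTR_PYR hearts (1788 to 3024 CPM) and of DTR_PBS (1072 to 2992 CPM). The log2 fold change against WT_PYR was −1.37 (SE 0.27, adjusted p = 0.053 in edgeR; 0.0021 on the 9 libraries alone and 5.6e-05 in DESeq2). Leaving out any 1 of the 9 hearts kept it between −1.42 and −1.30, with edgeR adjusted p from 0.079 to 0.26, passing in 0 of 9 fits. The adjusted p was 0.084 in limma voom and 0.074 in edgeR with the tag letter as a covariate. In the PBS libraries, none of which enters the comparison above, Myl2 fell by 1.91 in log2 (SE 0.22). Myl2 parted all DTR from all WT hearts and was followed with earlier results known, so no p-value is given there. Against the 2 V libraries of WT_PYR alone, at 7276 and 8755 CPM, the 3 hearts were as far below, with a log2 fold change of −1.39 in the V libraries. In bulk tissue, fewer cells of a type and less RNA per cell cannot be told apart.

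Among 107 genes that averaged 1000 CPM or more in WT_PYR, Myl2 had the lowest log2 fold change in the 3 hearts. The next were Rn18s-rs5, a ribosomal RNA locus (−0.67), Ckm, the muscle creatine kinase (−0.63), Fhl2, a LIM-domain protein of heart muscle (−0.53), and Actc1, cardiac actin (−0.47). Of 32 sarcomere genes, 4 lay wholly below WT_PYR (Actc1, Mybpc3, Myoz2 and Tpm1) and 2 above, beside 4.96% and 5.84% of all genes, with a median of 0.01. Among abundant genes that overlapped WT_PYR, Myh6, the fast adult myosin, stood at 30462, 26493 and 24553 CPM against 26208 to 37253, and Atp2a2, the calcium pump of the reticulum, at 12944, 14632 and 10051 against 12141 to 17279. Myl3, the partner light chain (chr9:110741861-110769798, plus strand), stood at 6053, 5906 and 5068 CPM against 6164, 6455 and 8981 in WT_PYR. Its groups did not overlap, but by a narrow margin, and the 3 hearts did overlap WT_PBS (5681 to 8249 CPM). Its log2 fold change was −0.29 (SE 0.28), and in the PBS libraries Myl3 fell by 0.88 (edgeR adjusted p = 0.0022).

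Myl2 and Myl3 differ enough in sequence for reads to be told apart, which the first 120 coding bases show, with the start codon in capitals (GENCODE vM21 transcripts, 5′ to 3′). Myl7, the atrial counterpart of Myl2, is the closest of those shown.
Myl2: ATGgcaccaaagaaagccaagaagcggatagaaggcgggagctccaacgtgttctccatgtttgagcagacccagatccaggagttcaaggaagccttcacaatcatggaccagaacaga
Myl7: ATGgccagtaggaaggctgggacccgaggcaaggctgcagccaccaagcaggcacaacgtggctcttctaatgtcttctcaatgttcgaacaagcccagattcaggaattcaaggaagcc
Myl3: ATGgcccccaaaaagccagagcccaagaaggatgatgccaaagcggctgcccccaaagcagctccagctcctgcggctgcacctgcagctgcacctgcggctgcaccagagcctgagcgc
Over the whole coding sequence, 501 bases in Myl2 and 615 in Myl3, these 2 shared 45.7% of aligned bases and no exact run longer than 11 bases. Myl2 and Myl7 shared 61.9% and no run longer than 16 bases. Myl7 had 0.108, 0.224 and 0 CPM in the 3 hearts and at most 1.98 CPM in WT_PYR.

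The ratio of Myl2 to Myl3 reads parted DTR from WT hearts irrespective of Hbegf; it was chosen after the values were seen. It was 0.551, 0.544 and 0.552 in the 3 hearts, on 17450 to 114585 Myl2 reads. WT_PYR ranged from 1.07 to 1.38 with a median of 1.13, and WT_PBS from 1.08 to 1.24. The 3 hearts thus lay at the bottom of the DTR range, beside DTR_PBS (0.551 to 0.597) and below the other DTR_PYR hearts (0.603 to 0.626), and no DTR heart came near a WT heart. Over the labelled groups of 6, the ratio was 0.493 times the WT level under PBS and 0.499 times under pyridostigmine. It was chosen once these groups were seen not to overlap, which fixes the outcome of a permutation test, so no p-value is given. Relative to 1000 reads of the sarcomere list, which holds neither light chain, Myl2 had 33.0, 35.0 and 27.6 reads in the 3 hearts and 64.9 to 95.9 in WT_PYR. Myl3 had 59.9, 64.4 and 50.1 per 1000 and overlapped WT_PYR (54.1 to 89.6). Between the labelled groups of 6, Myl3 per 1000 sarcomere reads was 0.716 times the WT level under PBS and 0.813 times under pyridostigmine. The exact two-sided permutation p-values were 0.00216, the smallest 6 against 6 allows, and 0.0693. They are given unadjusted, since the set of 6 tests run held those of the ratio and of Myl2, whose outcome was fixed. Myl2 per 1000 was 0.353 times under PBS and 0.406 times under pyridostigmine. Myl2 itself parted all DTR from all WT hearts, so this measure of it too is given with no p-value.

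Of 16 tested genes of light chains, their kinases and phosphatase subunits, 3 lay wholly below WT_PYR (Myl2, Myl3 and Myl9) and 1 above it, beside 4.96% and 5.84% of all genes, with a median log2 fold change of −0.22 against −0.01 over all genes. Myl9, the regulatory light chain of smooth muscle, stood at 22.7, 15.7 and 15.7 CPM against 27.8 to 31.8, and in DTR_PBS it did not pass (−0.27, edgeR adjusted p = 0.13). Ppp1r12a, the targeting subunit of myosin phosphatase, stood at 47.5, 50.9 and 64.4 CPM against 10.98 to 44.5 and rose by 1.90 in DTR_PBS. The cardiac light chain kinase Mylk3, at 682, 657 and 714 CPM, overlapped WT_PYR (374 to 867) and fell by 0.99 in DTR_PBS. In the PBS libraries 4 genes of the list rose and 6 fell, beside 22.9% and 23.0% of all genes. Ccdc63, whose locus overlaps that of Myl2 on the other strand, stayed at 0.641 to 1.19 CPM, within the WT_PYR range of 0.269 to 3.38. Of 95 tested genes within 2 Mb of Myl2, 0 passed, 8 lay wholly below WT_PYR and 3 above, with a median of −0.12. The genes whose log2 CPM followed Myl2 most closely over the 24 libraries were Dis3l, an exonuclease (r = 0.963), Aldh4a1, an enzyme of proline breakdown (0.962), and Aplp2, a relative of the amyloid precursor (0.958). These correlations are descriptions, since all 24 libraries share the split between DTR and WT.

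Myl2 was 1 of 108 genes (0.699%) that lay lower in all 12 DTR hearts than in all 12 WT hearts, while 55 (0.356%) lay higher in all. The examples were taken from these after their values were seen, by size of change in the 3 hearts. Kcnip2, which encodes a partner protein of the channels that carry the transient outward potassium current (chr19:45791839-45816061, minus strand), stood at 189, 135 and 124 CPM against 264, 324 and 454 in WT_PYR. The other 9 DTR hearts ranged from 5.60 to 51.9 CPM, so the 3 hearts lay between WT and injured hearts. Snai3, a transcriptional repressor, stood at 6.48, 5.02 and 4.80 CPM against 9.71, 13.8 and 17.6, and the other DTR hearts at 0 to 2.73. Hdac11, a deacetylase, stood at 20.3, 22.2 and 14.6 CPM against 31.7, 39.3 and 47.4 in WT_PYR and 2.90 to 13.6 in DTR_PBS. Unlike for Myl2, the 3 hearts lay above every other DTR heart in all these genes, in Hdac11 by a narrow margin.

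The log2 fold change in the 3 hearts was −1.16 (SE 0.43) for Kcnip2, −1.30 (SE 0.44) for Snai3 and −1.05 (SE 0.30) for Hdac11, and none of the 3 genes had an adjusted p under 0.05 there in edgeR. In the PBS libraries they fell by 3.62, 4.24 and 2.04. Their choice required every DTR_PBS heart to lie below every WT_PBS heart, so no p-value is given there. Slc9a2, a sodium-hydrogen exchanger, stood at 5.62, 5.86 and 5.12 CPM against 8.67 to 18.4. Cox4i2, a subunit form of cytochrome oxidase, stood at 7.34, 8.44 and 6.73 CPM against 11.6 to 18.8. The 3 hearts lay within the range of the other DTR_PYR hearts for Cox4i2 (6.24 to 9.47 CPM). For Slc9a2 (1.48 to 5.30 CPM) DTR_PYR 6 lay within that range and DTR_PYR 4 and 5 just above it. Slc9a2 fell by 1.80 and Cox4i2 by 1.09 in DTR_PBS. Lamb3, a laminin chain (16.5, 14.1 and 9.45 CPM against 21.2 to 29.7), and Ces1d, a carboxylesterase (58.5, 64.9 and 31.7 CPM against 76.2 to 110), were lowest in DTR_PYR 6. Cenpa, a histone variant of the centromere, stood at 24.6, 22.7 and 15.7 CPM against 29.0 to 46.2 and fell by 0.78 in DTR_PBS. There 29 of the 32 cell cycle genes rose, beside 22.9% of all genes.

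Among the genes that passed as higher, Serpina3n, an acute-phase serine protease inhibitor (chr12:104406729-104414329, plus strand), stood at 19.2, 25.6 and 98.8 CPM against 7.81, 10.6 and 15.2 in WT_PYR. All 3 hearts lay above the 12 WT hearts (at most 16.6 CPM), DTR_PYR 6 by far the most, and below the other 9 DTR hearts (156 to 277). The log2 fold change was 2.08 (SE 0.33); leaving out 1 heart at a time gave 1.01 to 2.45, the lowest without DTR_PYR 6. It rose by 4.16 in DTR_PBS (edgeR adjusted p = 2.9e-10). Fos, an immediate early transcription factor (chr12:85473890-85477273, plus strand), stood at 28.0, 28.1 and 76.9 CPM against 3.03, 4.79 and 12.7. Unlike Serpina3n it overlapped DTR_PBS (29.6 to 122) and the other DTR_PYR hearts (35.9 to 90.1) in DTR_PYR 6 and came next to them in the other hearts. Its log2 fold change was 2.78 (SE 0.46), 2.14 without DTR_PYR 6 and 1.79 with WT_PBS as controls, and it rose by 2.57 in DTR_PBS (edgeR adjusted p = 1.1e-05).

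Btg2, which slows the cell cycle (chr1:134075170-134079120, minus strand), stood at 70.5, 70.5 and 195 CPM against 34.6, 38.8 and 49.5 in WT_PYR. Ifrd1, a coregulator of transcription (chr12:40201567-40248504, minus strand), stood at 17.9, 29.1 and 18.3 CPM against 5.41, 7.09 and 10.3. Nmrk2, which makes NAD from nicotinamide riboside (chr10:81198170-81202037, minus strand), stood at 22.2, 24.7 and 34.1 CPM against 10.98, 14.3 and 16.8. None of the 3 genes overlapped WT_PYR, and all overlapped WT_PBS, whose highest hearts had 80.0, 23.4 and 23.4 CPM. Their log2 fold changes were 1.46, 1.56 and 0.91, and with WT_PBS as controls 0.89, 0.78 and 0.60. Without DTR_PYR 6 that of Btg2 was 0.80. In DTR_PBS they rose by 1.91, 2.60 and 2.90 (edgeR adjusted p at or below 3e-07). AI593442, a gene below the 5 CPM mean set for naming, also passed, at 3.56, 7.52 and 12.5 CPM against 1.19 to 1.65. It rose by 2.07 in DTR_PBS, where its range of 2.54 to 8.50 CPM took in 2 of the 3 hearts.

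Several receptors and matrix genes were higher in all DTR than in all WT hearts. Eda2r, a death-domain receptor and p53 target, stood at 6.48, 7.52 and 4.48 CPM against 1.24, 1.91 and 2.69 in WT_PYR and 13.9 to 43.8 in DTR_PBS. Tnfrsf12a, the receptor of the cytokine TWEAK, stood at 62.1, 74.1 and 133 CPM against 26.9, 40.1 and 58.0. Egr2, an immediate early factor, stood at 2.16, 3.06 and 6.89 CPM against 0.146, 0.960 and 2.15, so DTR_PYR 4 was barely above WT_PYR. Vcan, a large proteoglycan, stood at 14.3, 21.0 and 15.5 CPM against 5.41, 7.32 and 10.3, and Cilp, a matrix protein, at 16.0, 17.6 and 15.9 against 6.02, 8.76 and 13.8. Eda2r, Vcan and Cilp were not highest in DTR_PYR 6, unlike Tnfrsf12a and Egr2. The log2 fold changes were 1.66 for Eda2r, 1.19 for Tnfrsf12a, 1.90 for Egr2, 1.19 for Vcan and 0.85 for Cilp. In DTR_PBS all 5 rose, by 2.28 to 4.14. These 5 were chosen because all DTR hearts lay above all WT hearts, so no p-value is given for DTR_PBS.

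**Figure D2:**
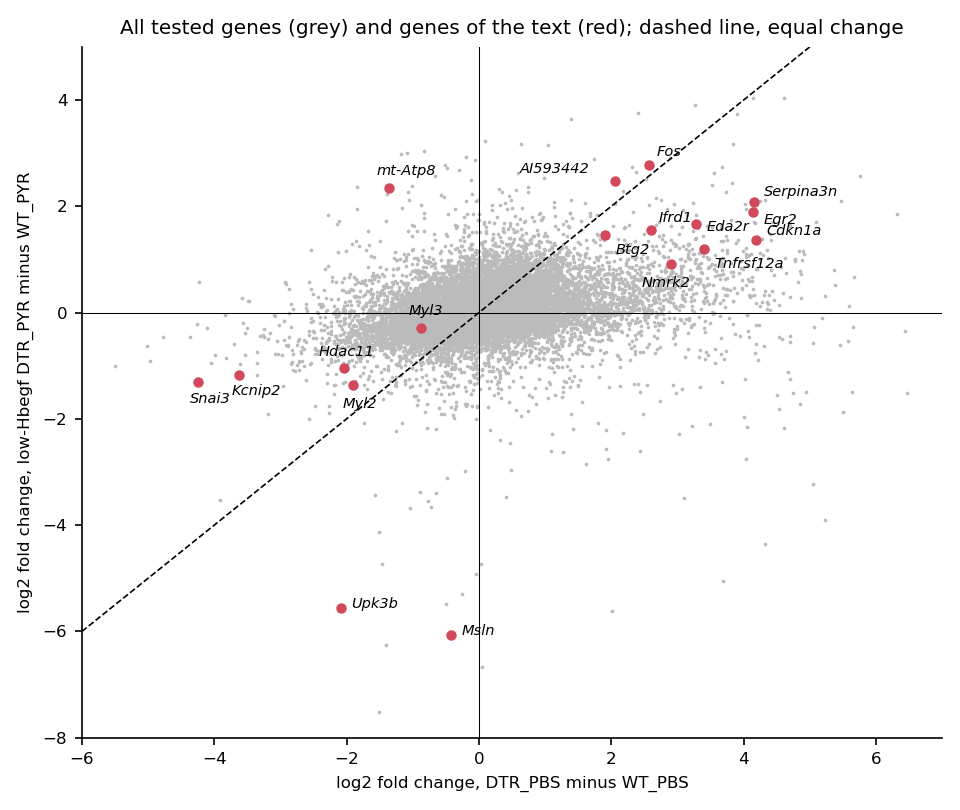
Log2 fold change of each tested gene in the 3 low-Hbegf DTR_PYR hearts against WT_PYR (vertical axis) and in DTR_PBS against WT_PBS (horizontal axis), which share no library; red points are named genes and the dashed line marks equal change. Most genes that moved in DTR_PBS lie near 0 on the vertical axis, Fos lies at the dashed line, Myl2 (−1.37 and −1.91) lies nearer to it than Kcnip2 (−1.16 and −3.62), and mt-Atp8 lies on opposite sides.

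The gene-wide pattern was a small shift toward the injured state. Of 1090 genes with at least 5 CPM that rose over 2-fold in DTR_PBS, 820 (75.2%) were higher in the 3 hearts than in WT_PYR, with a median log2 fold change of 0.28 against 1.58 in DTR_PBS. Of 907 genes that fell over 2-fold, 723 (79.7%) were lower, with a median of −0.27 against −1.30. Without overlap, 155 of the risen genes (14.2%) lay above and 219 of the fallen (24.1%) below WT_PYR. Of 4819 genes that did not pass in DTR_PBS, 58.7% had the same sign in both comparisons and 7.53% lay without overlap on that side. The median ratio of the fold changes was 0.154 for the risen genes and 0.193 for the fallen ones. For Myl2 it was 0.718, the fifth highest of 219 fallen genes that did not overlap WT_PYR, after Upk3b, Cox4i2, Igfbp5, a binding protein of insulin-like growth factors, and Sorcs2, a sorting receptor. These 219 were kept by their values in the same 3 hearts, so the rank is a description. By heart, the share of risen genes that were higher was 68.8%, 69.2% and 77.5%, and the share of fallen genes that were lower 72.1%, 70.7% and 83.3%. Single WT_PYR hearts, each set against the other 5, gave shares of 40.8% to 65.8% for the risen and 35.8% to 60.0% for the fallen genes. The V hearts WT_PYR 2 (65.8% and 60.0%) and WT_PYR 3 (60.4% and 54.5%) had the highest risen shares. The U hearts gave 40.8% to 58.8% and 35.8% to 56.2%. The 3 hearts were all V, and the part of the tag letter in the shift was not tested.

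**Figure D3:**
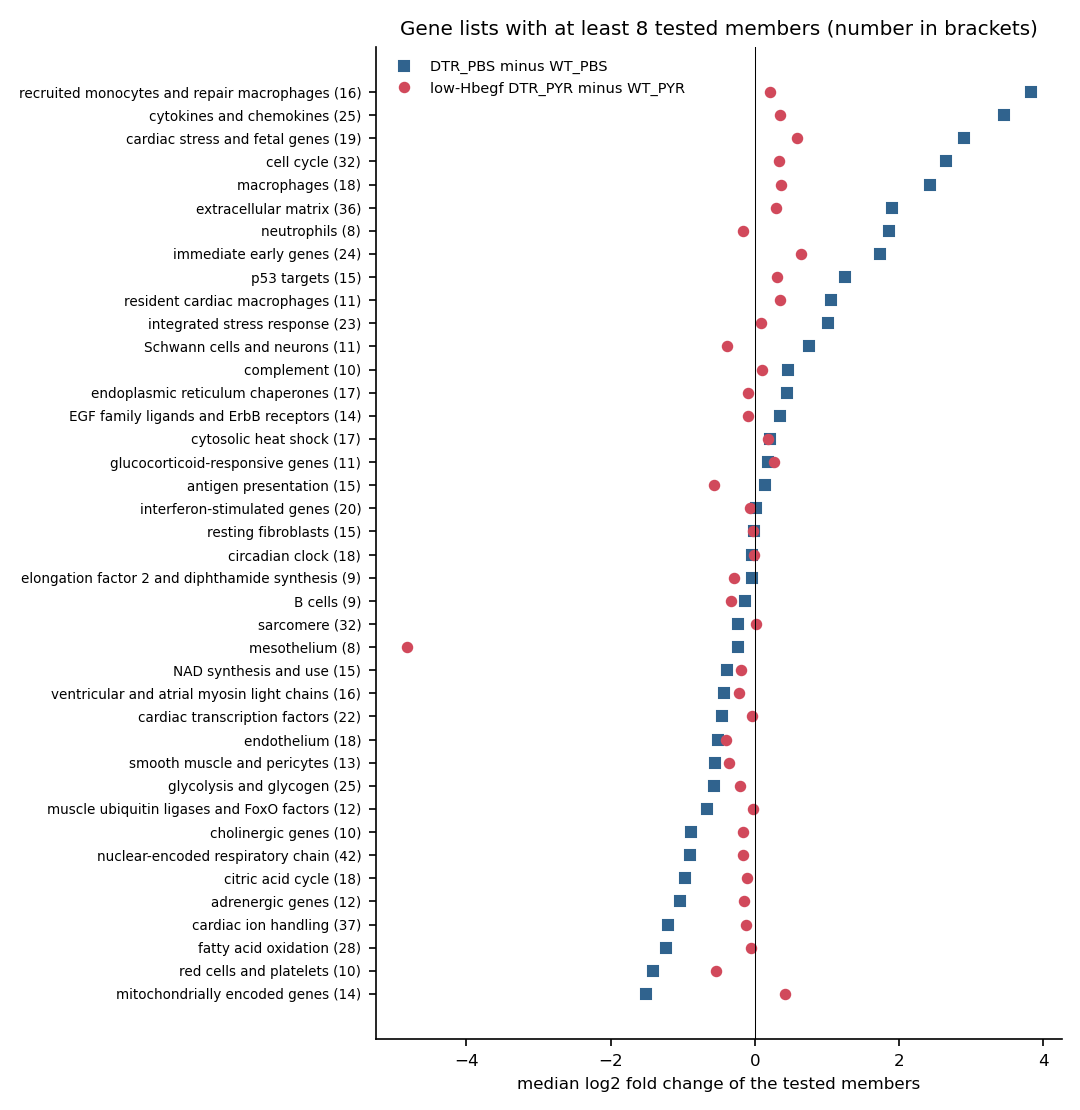
Median log2 fold change of the tested members of each gene list with at least 8 of them, in the 3 low-Hbegf DTR_PYR hearts against WT_PYR (red circles) and in DTR_PBS against WT_PBS (blue squares). Red circles run from −0.57 for antigen presentation to 0.64 for immediate early genes except for the mesothelial list, at −4.82, while blue squares run from −1.51 for mitochondrially encoded genes to 3.83 for recruited monocytes.

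Of 19 cardiac stress and fetal genes, 17 rose in DTR_PBS, where 22.9% of all genes rose. In the 3 hearts 6 of the list lay wholly above WT_PYR and 0 below, beside 5.84% and 4.96% of all genes, with a median of 0.58. Besides Serpina3n, Nmrk2, Tnfrsf12a and Cilp these were Otud1, a deubiquitinase (43.5, 48.0 and 81.7 CPM against 21.2 to 41.1), and Ptx3, a pentraxin (1.30, 1.07 and 1.60 against 0.146 to 0.822). Nppa, atrial natriuretic peptide, stood at 100, 104 and 169 CPM and overlapped WT_PYR (76.0 to 155). Myh7, a slow myosin heavy chain abundant before birth, reached 3614 CPM in DTR_PYR 6 alone, with 335 and 303 CPM in the other hearts and 254 to 919 in WT_PYR. Of 24 immediate early genes, 20 rose in DTR_PBS, beside the same 22.9%. In the 3 hearts 6 of them lay wholly above WT_PYR, beside 5.84% of all genes, and 23 had positive fold changes (median 0.64). One of these 6, Nr4a1, an orphan nuclear receptor, stood at 105, 63.3 and 134 CPM against 14.4 to 49.8 in WT_PYR. The 3 hearts overlapped WT_PBS, which reached 129 CPM. Nr4a1 did not pass in DTR_PBS (0.15, edgeR adjusted p = 0.74), where its 33.8 to 134 CPM also overlapped WT_PBS. Of 15 targets of p53, 3 lay wholly above, again beside 5.84%: Eda2r, Mdm2, which degrades p53 (0.35), and Aen, a nuclease (0.33).

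In each of the 5 lists of channel and metabolic genes given here, the share wholly below WT_PYR was above the 4.96% of all genes, with small medians. Over all genes 5.84% lay wholly above WT_PYR, and 23.0% fell in DTR_PBS. Of 37 ion handling genes, 28 fell in DTR_PBS and 7 lay wholly below WT_PYR in the 3 hearts, with a median of −0.12. Besides Kcnip2 these included the pacemaker channels Hcn4 (8.64, 9.65 and 8.81 CPM against 16.0 to 19.6) and Hcn2 (−0.80 in log2), and the calcium channel subunit Cacna1s (15.3, 10.9 and 11.4 against 15.7 to 29.4). Pln, phospholamban, which restrains the calcium pump, lay above WT_PYR, at 3373, 3940 and 3286 CPM against 1896 to 3271, and fell by 1.44 in DTR_PBS. Nuclear-encoded respiratory chain genes lay below WT_PYR in 9 of 42 and above in 2 (median −0.16), and 39 fell in DTR_PBS. Fatty acid oxidation genes lay below in 3 of 28 and above in 2 (median −0.05), and 26 fell in DTR_PBS. Citric acid cycle genes lay below in 5 of 18 and above in 1 (median −0.11), and 16 fell in DTR_PBS. Glycolysis and glycogen genes lay below in 7 of 25 and above in 0 (median −0.21), among them Pfkm, muscle phosphofructokinase (−0.46), and Slc2a1, the GLUT1 glucose transporter (−0.52), which rose by 0.52 in DTR_PBS.

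Of 36 matrix genes, 31 rose in DTR_PBS, and 6 lay wholly above WT_PYR in the 3 hearts, beside 5.84% of all genes, among them Postn, periostin of activated fibroblasts (28.8, 47.1 and 26.3 CPM against 7.03 to 24.7), Fbn1, fibrillin (144, 172 and 151 against 88.5 to 119), and the growth factor Tgfb2 (17.2, 21.1 and 26.4 against 9.76 to 14.4). Col1a1, the main scar collagen, overlapped WT_PYR at 252 to 408 CPM against 191 to 312. All 18 macrophage markers had positive fold changes (median 0.36), but only the integrin Itgam did not overlap WT_PYR, and all 18 rose in DTR_PBS. Over all genes 22.9% rose in DTR_PBS. Summed over 4 macrophage markers, the 3 hearts had 107 to 115 CPM, within the WT_PYR range of 71.2 to 122. Of 11 genes of resident cardiac macrophages, Igf1, Mrc1, a mannose receptor, and F13a1, a clotting factor subunit, lay wholly above WT_PYR; Igf1 stood at 11.8, 12.3 and 11.5 CPM against 4.04 to 8.85. Recruited monocyte genes (1 of 16 above, median 0.20) and cell cycle genes (0 of 32 above, 1 below, median 0.33) stood far below their DTR_PBS medians of 3.83 and 2.65.

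Endothelial markers had negative fold changes in 18 of 18 genes (median −0.40), with Pecam1, Cdh5 and Aqp1 wholly below WT_PYR, beside 4.96% of all genes. Of the 18, 13 fell in DTR_PBS, where 23.0% of all genes fell. Antigen presentation genes were negative in 14 of 15 (median −0.57), with H2-K1 and H2-Ab1 wholly below WT_PYR. In DTR_PBS 4 of the 15 rose and 2 fell, beside 22.9% and 23.0% of all genes. Of the cholinergic genes, Bche, butyrylcholinesterase, stood at 15.6, 18.6 and 12.01 CPM against 2.21, 6.76 and 11.6 in WT_PYR, and in DTR_PBS it went the other way (−1.07, edgeR adjusted p = 0.026). Bche in the 3 hearts overlapped WT_PBS, which reached 17.5 CPM. Ache, acetylcholinesterase, stood at 3.67, 3.70 and 2.24 CPM and overlapped WT_PYR (3.37 to 6.39).

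Some of the differences moved with the tag letter or with mitochondrial reads. The 8 mesothelial markers of the heart's outer layer summed to 6.69, 5.07 and 4.80 CPM in the 3 hearts. The other 9 V libraries had 6.71 to 31.3 CPM (median 9.67) and the 12 U libraries 28.3 to 76.3 (median 48.2), so V libraries were mostly lower and the 3 hearts were the lowest of them. Upk3b, a mesothelial surface protein, stood at 0.540, 0.280 and 0.480 CPM against 1.75 and 1.83 in the V and 19.1 to 32.3 in the U libraries of WT_PYR, and its log2 fold change went from −5.55 to −2.20 in the V libraries alone. Mitochondrially encoded genes took 14.6%, 17.9% and 12.7% of counts in the 3 hearts, 9.08% to 12.6% in WT_PYR and 6.01% to 25.6% in WT_PBS. Of 14 such genes, 13 had positive fold changes (median 0.42), and all 14 fell in DTR_PBS. The one that passed, mt-Atp8, a subunit of ATP synthase (MT, 7766 to 7969), stood at 1819, 2469 and 3557 CPM against a WT_PYR median of 532 and highest value of 611 but overlapped WT_PBS (231 to 3393), and its log2 fold change of 2.35 was 0.85 with WT_PBS as controls. It overlaps mt-Atp6, which stood at 12.8 to 26.7 CPM, so the split of reads between them is uncertain. Rn7sk, a short nuclear RNA, stood at 20.5, 19.3 and 26.9 CPM, below all 12 WT hearts (30.2 CPM or more), and the V libraries of WT_PYR had 62.1 and 138 CPM. The tag letter entered as a covariate, where edgeR gave 0 calls, and in a fit of V libraries alone, and its part was not tested further. The part of mitochondrial reads in these results was not tested.

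**Figure D4:**
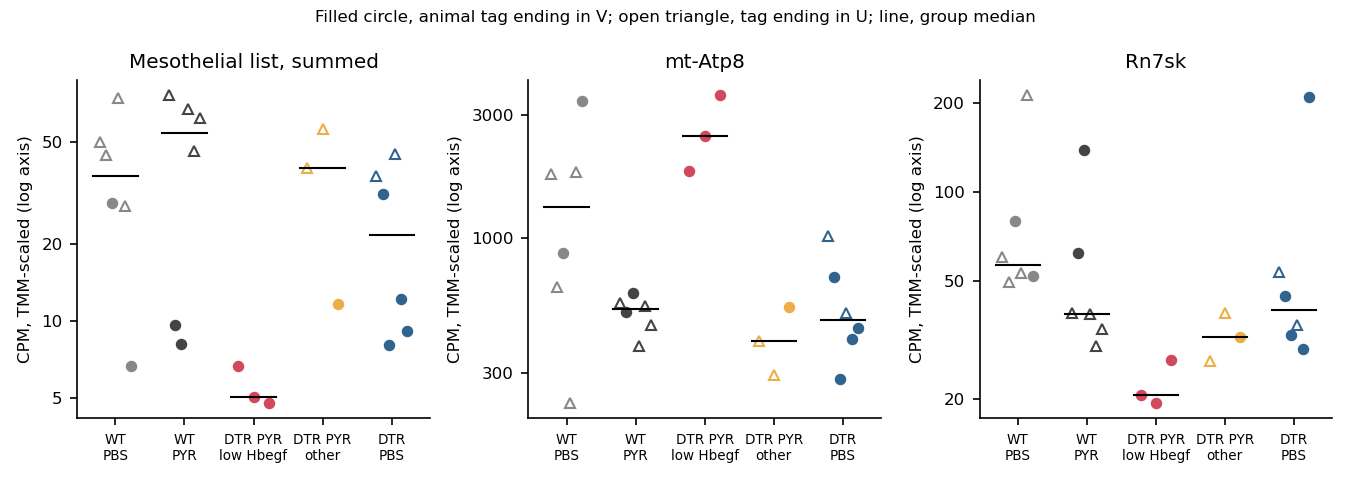
Summed CPM of 8 mesothelial genes and CPM of mt-Atp8 and Rn7sk per library (log axes), with filled circles for V and open triangles for U animal tags and lines for group medians. The 3 low-Hbegf hearts, all V, have mesothelial sums of 4.80 to 6.69 CPM at the low end of the V libraries and mt-Atp8 of 1819 to 3557 CPM at the level of the highest WT_PBS libraries.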

How the data were processed

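Apex RNA of 24 mice was analysed from the deposited table of raw counts per Ensembl gene (46078 genes), made by the authors. Per the submitters' processing notes the build was GRCm38 and the tools were HTSeq, edgeR, DESeq, TopHat, TopHat2 (2.1.1) and Bowtie2, with no roles or annotation release stated. Per the labels' protocols, libraries were polyadenylated, single-end and without strand, so counts of overlapping or antisense genes and close paralogs are uncertain. Totals ranged from 1.88 to 37.8 M counts. The 2 filtered or normalised tables were not used. Of the 46078 genes, 197 lacked a symbol, 193 of which were named from GENCODE vM21. Coordinates are those of the deposited table with 1 added to the start.

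The filter kept 15456 genes that exceeded 0.5 CPM in 6 or more libraries. They were fitted with TMM and edgeR 4.0.16 quasi-likelihood (R 4.3.3), with coefficients for WT_PBS, WT_PYR, DTR_PBS, the 3 hearts and the other DTR_PYR hearts; the labelled contrast used 4 coefficients. P-values are two-sided, Benjamini-Hochberg adjusted over all genes, with a threshold of 0.05. Log2 CPM used a prior count of 2. Alternatives used DESeq2 1.42.0, limma 3.58.1 voom, other scalings, filters, controls and library subsets. The script was checked on simulated counts.

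The hearts, gene lists (44 lists, 805 genes) and comparisons were chosen with earlier results of these data known. Named genes are called genes that average 5 CPM or more without overlap (at most 15 each way) and list members; genes separating all DTR from all WT hearts and the light chain ratio were chosen after their values were seen. Replicate numbers follow accession order.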

Additional observations from a re-analysis of the deposited data

Results flagged for a closer look

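In 20 measures and 4 labelled groups of 6 (80 sets of values), 4 hearts stood far from the rest of their group; chance alone flags about 1 set in 20. Myh7 had 3614 CPM in DTR_PYR 6, where the next highest DTR_PYR heart had 1058. The Myl2 to Myl3 ratio of 1.38 in WT_PYR 3 was above the next, 1.18, and so farther from the DTR hearts. Ifrd1 had 23.4 CPM in WT_PBS 6, against 13.04 in the next heart, and Egr2 had 33.7 CPM in DTR_PBS 4, against 22.3 in the next.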

How the results depend on the processing

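No paired analysis was possible because replicate numbers follow accession order and pair no animals across groups. For the 3 hearts against WT_PYR, the 7 calls became 83 with DESeq2, 25 with no filter on low counts, 35 on the 9 libraries alone and 4 with WT_PBS as controls. They became 0 with limma voom, with the tag letter as a covariate and on V libraries only (3 against 2), where 2384, 1285 and 549 genes had an unadjusted p under 0.05. Leaving out 1 heart gave 0 to 15. For DTR_PBS minus WT_PBS, leaving out 1 heart gave 6230 to 7309 calls. For DTR_PYR minus WT_PYR as labelled, the 1891 calls became 787 with limma voom, 1232 with no filter, 2920 with the tag covariate, 1254 on the 12 libraries alone and 748 to 2707 without 1 heart (lowest without DTR_PYR 1, highest without DTR_PYR 4). Counts without overlap went from 902 higher and 767 lower to 1090 and 521 with total counts only. None of 16 genes followed through these alternatives changed direction in any of the 3 contrasts. For the 3 hearts, 66 of 320 such values lost and 21 gained the 0.05 threshold; the cause was not tested. With 3 hearts, all V, small differences and those tied to the tag letter are not detectable, and DTR_PYR 6 stood nearer the injured hearts than the other 2.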
